A study of Camellia sinensis with 15 samples.

Results

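Roots of tea seedlings (*Camellia sinensis* 'Fuding Dabaicha') that had been treated with As for 15 d (As2) were compared with roots of untreated seedlings (CK). The comparison used 6 of the 15 labelled libraries, 3 for As2 and 3 for CK. All of them came from roots of the same cultivar, labelled as the WT genotype. The seedlings were 2 years old and grew in pots. Those of As2 were poured with 400 mL of an As solution of 120 mg/kg and sampled after 15 d, while those of CK received no metal. As for 10 d (As1) and Cd for 15 d (Cd2), applied in the same volume and at the same concentration, were used as further points of comparison, and Cd for 10 d (Cd1) only in the model and for single libraries. In the labels every library carries day 15, so the time of As1 and Cd1 rests on the methods alone. The study gives As as As(V) in its methods and as As(II) in its results, and no control group for each sampling time was analysed here. Whether 1 library stands for 1 plant or for several was not stated, and p-values measure only the spread between these libraries, which may in part be technical.

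As a background, As(V) resembles phosphate and enters root cells through phosphate transporters. It is reduced to As(III) inside the cell, where it binds thiols such as those of glutathione and phytochelatins, and the complexes are moved into the vacuole. Stressed roots commonly respond through abscisic acid, calcium signals and transcription factors of the MYB, AP2/ERF and bHLH families. Galactinol and raffinose are soluble sugars known from drought and cold responses, while the proteins called HIPPs carry a heavy-metal-associated domain and a lipid anchor (an isoprenyl group).

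The fragments recovered from the FPKM values came to between 10483112 and 12099167 in the As2 libraries and between 10898773 and 13001267 in the CK libraries. Between 37933 and 39303 genes were above 0 in As2 and between 38537 and 39868 in CK. The As2 libraries did not form a group of their own. By the Pearson correlation of log2(FPKM + 1) over 46517 genes, the nearest library of As2 replicate 1 (As2-1) was Cd2 replicate 2 (r = 0.959), that of As2-2 was CK-3 (r = 0.960), and that of As2-3 was CK-1 (r = 0.956), against 0.946 to 0.955 among the As2 libraries and 0.945 to 0.962 among the CK libraries. On the first principal component of the 6 libraries, which held 34.5% of the variance, As2-1 (0.46) and As2-3 (0.57) stood at one end, while As2-2 (−0.28) stood on the side of CK-2 (−0.32) and CK-3 (−0.53), and CK-1 (0.10) lay between. The median SD of log2(FPKM + 1) between libraries was 0.319 in As2 and 0.304 in CK. The total counts of genes called by the test and of genes whose libraries separated with a change over 2-fold are therefore also given without As2-2. So are the named genes whose calls it changed. The shares by level of expression use all 6 libraries. No table used here paired the CSS identifiers of the genes with positions, names or markers of root cell types, so genes are given by identifier, and the name or family of a gene is the one in the study's text. In RNA from whole roots, fewer cells of a type and less RNA per cell cannot be told apart.

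Few genes passed the test in As2 vs. CK, and among genes with a mean difference over 2-fold more were lower than higher in As2. Of the 29496 genes tested (FPKM of at least 1 in at least 3 of the 6 libraries), 430 averaged over 2-fold higher in As2 (1.46%) and 964 over 2-fold lower (3.27%) on the log2(FPKM + 1) scale, together 4.73%. At low FPKM this scale gives smaller changes than the FPKM ratio. Only 5 of them were DEGs (0.0170%; limma-trend, Benjamini-Hochberg FDR under 0.05 and |log2 fold change| over 1). Of these, 2 were higher in As2 (0.00678%) and 3 were lower (0.0102%), and 966 genes (3.28%) had a fold change over 2 and an unadjusted p under 0.05. The count rested on single libraries. It was 122 without As2-2 and 12 without CK-3, and no gene was called without As2-1 or without CK-1 (830 and 1337 genes at an unadjusted p under 0.05). With the 2 groups fitted alone, 0 genes were called (903 at an unadjusted p under 0.05).

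The separation of the libraries gave a second description that needs no model. All As2 libraries lay on one side of all CK libraries in 3925 genes at any size of change (13.3%), 1952 of them higher (6.62%) and 1973 lower (6.69%) in As2. When a change over 2-fold was also asked for, 255 genes were higher (0.865%) and 502 were lower (1.70%), and these 757 (2.57%) are called genes apart below. Without As2-2 there were 1815, of which 419 were higher and 1396 lower in As2, where complete separation had to hold for 1 library fewer. The genes apart that were higher in As2 differed by a median of 2.32-fold, with a largest log2 fold change of 2.65. Those that were lower differed by a median of 2.57-fold, with a largest log2 fold change of −4.53. At a 4-fold change, 13 genes apart were higher (0.0441%) and 68 were lower (0.231%). Among the tested genes, 153 passed the filter on FPKM in every CK library and in no As2 library and 109 in every As2 library and in no CK library, and 86 and 33 of them were among the genes apart.

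The excess of lower over higher genes was found at each level of expression. Among the 11433 genes with a mean FPKM under 5, 0.910% were apart and higher in As2 and 2.00% apart and lower. Among the 1364 genes with a mean FPKM of 100 or more, 0.953% were apart and higher and 2.35% apart and lower. Genes in the reference annotation (CSS identifiers) were apart and lower in As2 in 1.76% of 25596 cases and higher in 0.801%. The 3900 tested genes with identifiers outside it were nearly balanced, with 1.33% lower and 1.28% higher. The median log2 fold change was 0.005 over all tested genes, −0.09 over those with a mean FPKM of 100 or more and 0.12 over those with identifiers outside the reference annotation.

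**Figure D1:**
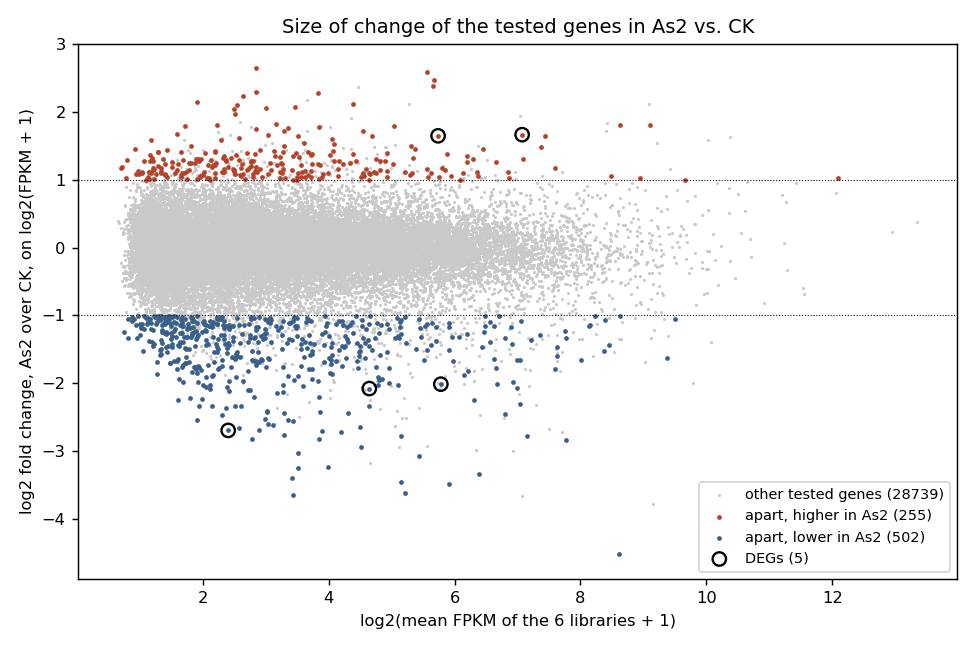
Log2 fold change of As2 over CK on the log2(FPKM + 1) scale (vertical axis) against log2(mean FPKM of the 6 libraries + 1) (horizontal axis) for the 29496 tested genes. Grey points are the other tested genes, coloured points the 757 genes apart, of which 255 were higher (red) and 502 lower (blue) in As2, ringed points the 5 DEGs, and dotted lines a 2-fold change. The lower genes reach a log2 fold change of −4.53 and the higher genes 2.65.

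Of the 5 DEGs, the 4 without a name in the study's text were named here after their values were seen, because they are so few. CSS0037541, the DEG with the highest level in As2, had 230, 224 and 158 FPKM in As2 and 53.6, 72.8 and 63.3 FPKM in CK. Every As2 library was more than 2 times as high as every CK library. CSS0037541 was higher in As2 by a log2 fold change of 1.67 ± 0.18 (SE; limma-trend, adjusted p = 0.0142). CSS0041534 had 91.9, 81.7 and 66.1 FPKM in As2, against 20.4, 30.0 and 24.1 FPKM in CK, and was higher in As2 by a log2 fold change of 1.65 ± 0.19 (SE; limma-trend, adjusted p = 0.0142). CSS0037541 and CSS0041534 moved in step: the FPKM of the first was 2.29 to 3.09 times that of the second in each of the 14 libraries. Whether they are near-identical copies that share fragments could not be looked up, and they may not be 2 separate observations. Their calls held without As2-2, As2-3, CK-2 or CK-3 and were lost without CK-1 (adjusted p = 0.105 for both, limma-trend) and without As2-1 (adjusted p = 0.134 for both, limma-trend).

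CSS0014376 was the most evenly measured gene of the 5 in As2, with 20.6, 19.99 and 19.0 FPKM, against 96.0, 118 and 50.8 FPKM in CK. The As2 libraries lay within 2 FPKM of each other, and the spread was that of CK. CSS0014376 was lower in As2 by a log2 fold change of −2.01 ± 0.27 (SE; limma-trend, adjusted p = 0.0471). Its call held without As2-2 or without CK-3 and was lost without any of the other libraries (adjusted p between 0.105 and 0.248, limma-trend). CSS0016059 was almost silent in As2, with 0, 2 and 7 fragments (0, 0.27 and 1.00 FPKM), against 53, 79 and 48 fragments in CK (6.58, 11.7 and 6.17 FPKM). CSS0016059 was lower in As2 by a log2 fold change of −2.70 ± 0.37 (SE; limma-trend, adjusted p = 0.0471), a value that depends on the pseudocount at this level and was −4.52 with a pseudocount of 0.1. It passed the filter through the CK libraries alone and so was not tested when one of them was left out, and its call was lost without As2-1 (adjusted p = 0.248, limma-trend). The fifth DEG was a MYB gene, CSS0030465, described with its family.

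The study's text names 22 tea genes in connection with these metals, and all 22 were tested. The study chose them on these same libraries, so their directions are a description and not independent evidence. Of the 22, 1 was a DEG in As2 vs. CK (0.0170% of all tested genes) and 12 were genes apart (2.57% of all tested genes), 7 of them higher and 5 lower in As2. The libraries of As2 and CK did not overlap in 13 of the 22 (13.3% of all tested genes) and overlapped in 9. The median log2 fold change of the 22 was −0.21, beside 0.005 over all tested genes.

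The study-named genes of galactinol and raffinose synthesis were all higher in As2, 4 genes of 4, with a median log2 fold change of 1.44. None passed the test. The study named them as raised at 15 d in these same libraries, so this direction was part of the choice. Galactinol synthase (GolS) joins galactose to myo-inositol and so makes the galactose donor of the pathway. GolS gene CSS0035212 had 392, 197 and 154 FPKM in As2, against 72.6, 65.3 and 110 FPKM in CK. GolS gene CSS0001107 had 149, 81.2 and 84.5 FPKM in As2, against 39.4, 30.3 and 49.5 FPKM in CK. GolS gene CSS0019367 had 124, 62.6 and 65.8 FPKM in As2, against 23.3, 25.7 and 44.8 FPKM in CK. In each of the GolS genes the lowest As2 library was above the highest CK library, and As2-1 was far above As2-2 and As2-3. Log2 fold changes were 1.49 ± 0.33, 1.35 ± 0.25 and 1.39 ± 0.31 (SE) for CSS0035212, CSS0001107 and CSS0019367, with limma-trend adjusted p-values of 0.145, 0.0914 and 0.145. Raffinose synthase (RFS) transfers the galactose of galactinol to sucrose. RFS gene CSS0050491 had 37.3, 15.4 and 20.01 FPKM in As2, against 8.26, 4.30 and 8.73 FPKM in CK, a log2 fold change of 1.60 ± 0.38 (SE; limma-trend, adjusted p = 0.173).

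A gene of abscisic acid synthesis, a HIPP gene and an AP2/ERF gene were likewise highest in As2-1. 9-cis-epoxycarotenoid dioxygenase (NCED) cleaves carotenoids in the rate-limiting step towards abscisic acid. NCED gene CSS0033791 had 52.0, 26.6 and 25.7 FPKM in As2, against 14.4, 5.05 and 10.6 FPKM in CK, a log2 fold change of 1.73 ± 0.38 (SE; limma-trend, adjusted p = 0.144). HIPP gene CSS0006162 had 366, 236 and 185 FPKM in As2, against 106, 62.8 and 75.8 FPKM in CK, a log2 fold change of 1.65 ± 0.35 (SE; limma-trend, adjusted p = 0.136). The study's discussion also lists CSS0006162 among its GolS genes, while its results and conclusions give it as HIPP. The AP2/ERF gene CSS0000647, a member of a family of plant transcription factors that bind GCC-box and dehydration-responsive elements, had 84.0, 34.0 and 34.6 FPKM in As2, against 14.1, 8.96 and 16.0 FPKM in CK. The log2 fold change of CSS0000647 was 1.79 ± 0.32 (SE; limma-trend, adjusted p = 0.0914).

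These 7 genes (3 GolS, RFS, NCED, HIPP and CSS0000647) were thus all apart and higher in As2 (0.865% of all tested genes), with log2 fold changes of 1.35 to 1.79, and 0 of 7 were DEGs. By its own analysis the study counts these 7 among its DEGs under Cd and As. It also reports that quantitative RT-PCR of them generally matched its sequencing, which was not examined here. As2-1 was the highest of the 6 libraries in 7 of 7, at 1.74 to 2.45 times the mean of As2-2 and As2-3. CK-2 was the lowest CK library in 6 of 7. How often As2-1 was highest or CK-2 lowest over all tested genes was not counted. Without As2-1 the 7 log2 fold changes were 1.07 to 1.41, and 0 were called. Without As2-2, 2 were called, CSS0000647 (log2 fold change 2.01, adjusted p = 0.0372, limma-trend) and CSS0001107 (log2 fold change 1.505, adjusted p = 0.0434, limma-trend), beside 0.427% of all genes tested without that library. As2-2 was the As2 library nearest to CK in both genes, so leaving it out enlarges the difference by its choice.

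**Figure D2:**
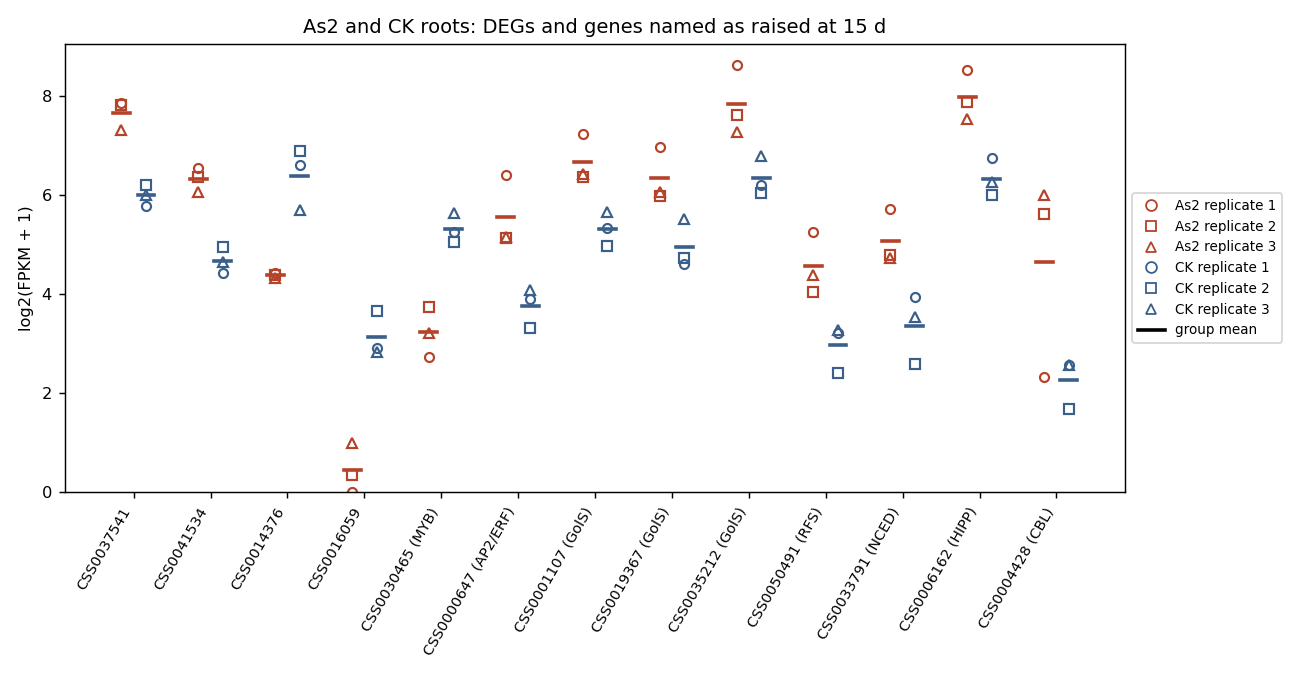
Log2(FPKM + 1) of the 5 DEGs, of the 7 genes described as apart and higher (the AP2/ERF gene CSS0000647, 3 GolS genes, RFS, NCED and HIPP) and of the CBL gene, in each library of As2 (red, left of each pair) and CK (blue, right). Each symbol is 1 library and each bar the mean of 3. In the 7 genes all As2 libraries lie above all CK libraries with As2-1 on top, and in the CBL gene As2-1 lies among the CK libraries.

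A calcineurin B-like protein (CBL) gene, CSS0004428, had the largest log2 fold change of the named genes that averaged higher in As2 and did not separate the groups. CBL proteins bind calcium and pass its signal to partner kinases. CSS0004428 had 4.003, 48.3 and 62.7 FPKM in As2, against 4.95, 2.19 and 4.95 FPKM in CK. As2-1, the library with the highest values for the 7 genes above, lay within the CK range here. The log2 fold change was 2.37 ± 1.02 (SE; limma-trend, adjusted p = 0.492) and ranged between 1.70 and 3.54 as single libraries were left out.

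The MYB genes that the study names had log2 fold changes below 0 on the log2(FPKM + 1) scale in 8 genes of 8, with a median of −0.82. The study named them as reduced under Cd or As in libraries of this series, so this direction was part of the choice. The mean FPKM of CSS0000442 was not lower in As2 (15.7 in As2 and 15.2 in CK). Of the 8, 1 was a DEG (0.0102% of all tested genes were lower DEGs). MYB proteins bind DNA through helix-turn-helix repeats and control, among others, phenylpropanoid synthesis, root hairs and stress responses in plants. CSS0030465 had 5.69, 12.3 and 8.32 FPKM in As2, against 37.2, 32.1 and 48.6 FPKM in CK, so that the highest As2 library was far below the lowest CK library. It was lower in As2 by a log2 fold change of −2.08 ± 0.29 (SE; limma-trend, adjusted p = 0.0473). The call of CSS0030465 held in 1 of the 6 fits that left out a library, the one without As2-2 (adjusted p = 0.00988, limma-trend), and the adjusted p of the other fits lay between 0.105 and 0.248.

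CSS0032956 was the other MYB gene whose libraries did not overlap, with 3.89, 2.81 and 2.10 FPKM in As2, against 9.28, 8.38 and 5.31 FPKM in CK. Its log2 fold change was −1.13 ± 0.38 (SE; limma-trend, adjusted p = 0.364). In the remaining 6 MYB genes the groups overlapped, and As2-2 was the highest As2 library in each of them. Over all tested genes 13.3% did not overlap, and how often As2-2 was the highest As2 library was not counted. CSS0000442 had 3.14, 40.3 and 3.49 FPKM in As2, against 14.5, 13.0 and 18.2 FPKM in CK. As2-2 was above every CK library and both of the other As2 libraries were far below, with a log2 fold change of −0.81 with As2-2 and −1.90 without it. CSS0002706 had 4.96, 29.4 and 3.07 FPKM in As2, against 11.4, 16.5 and 29.2 FPKM in CK, and its log2 fold change was −1.05 with As2-2 and −1.93 without it. CSS0015964 had 0, 38 and 0 fragments in As2 (0, 3.45 and 0 FPKM), against 17, 13 and 41 fragments in CK (1.40, 1.28 and 3.49 FPKM). The same library thus stood alone in 3 genes of the family, and without it none of these 3 passed the test (limma-trend). In CSS0006502 (log2 fold change −0.54), CSS0031744 (−0.68) and CSS0043569 (−0.34) the group means differed by less than the highest and lowest libraries within each group did. The log2 fold change of CSS0043569 turned to 0.05 without As2-1.

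Among the 6 AP2/ERF genes, 3 were apart and lower in As2 (1.70% of all tested genes) and 1 was apart and higher (0.865%), and none was a DEG. CSS0034513 had 4.66, 10.4 and 1.37 FPKM in As2, against 79.0, 42.9 and 78.6 FPKM in CK. Its mean was 12.2 times higher in CK, and the log2 fold change of −3.61 ± 0.56 (SE) fell just outside the threshold (limma-trend, adjusted p = 0.0564). CSS0009309 had 3.94, 23.2 and 3.95 FPKM in As2, against 99.3, 40.3 and 83.5 FPKM in CK, a log2 fold change of −3.07 ± 0.61 (SE; limma-trend, adjusted p = 0.104). CSS0043971 had 0.30, 3.83 and 0.77 FPKM in As2, against 10.2, 9.73 and 17.0 FPKM in CK, a log2 fold change of −2.53 ± 0.46 (SE; limma-trend, adjusted p = 0.0914). In these 3 genes As2-2 was the As2 library nearest to CK. Without As2-2 all of the 3 passed the test, with log2 fold changes of −4.16, −3.83 and −3.09 for CSS0034513, CSS0009309 and CSS0043971 (adjusted p = 0.0110, 0.0110 and 0.00988, limma-trend). Leaving out the As2 library nearest to CK enlarges the difference by its choice, so these calls are not support of their own. In the same fit CSS0043971 also passed the filter on FPKM through the CK libraries alone. Without As2-1 instead, none of the 3 was called (adjusted p = 0.29, 0.39 and 0.31, limma-trend).

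The other AP2/ERF genes and the bHLH gene differed less. CSS0018401 had 182, 213 and 250 FPKM in As2, against 118, 137 and 118 FPKM in CK. The groups did not overlap, the difference was below 2-fold (log2 fold change 0.78 ± 0.19, SE), and it did not pass the test (limma-trend, adjusted p = 0.189). CSS0049619 had 84.1, 195 and 76.5 FPKM in As2, against 70.7, 118 and 177 FPKM in CK, with As2-2 and CK-3 as the highest libraries of their groups. Its log2 fold change was −0.08 ± 0.46 (SE) and changed sign without CK-3, As2-1 or As2-3. The bHLH gene CSS0041447, from a family of dimeric transcription factors, had 34.0, 30.2 and 61.3 FPKM in As2, against 26.8, 31.7 and 13.7 FPKM in CK (log2 fold change 0.78 ± 0.37, SE; limma-trend, adjusted p = 0.544).

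**Figure D3:**
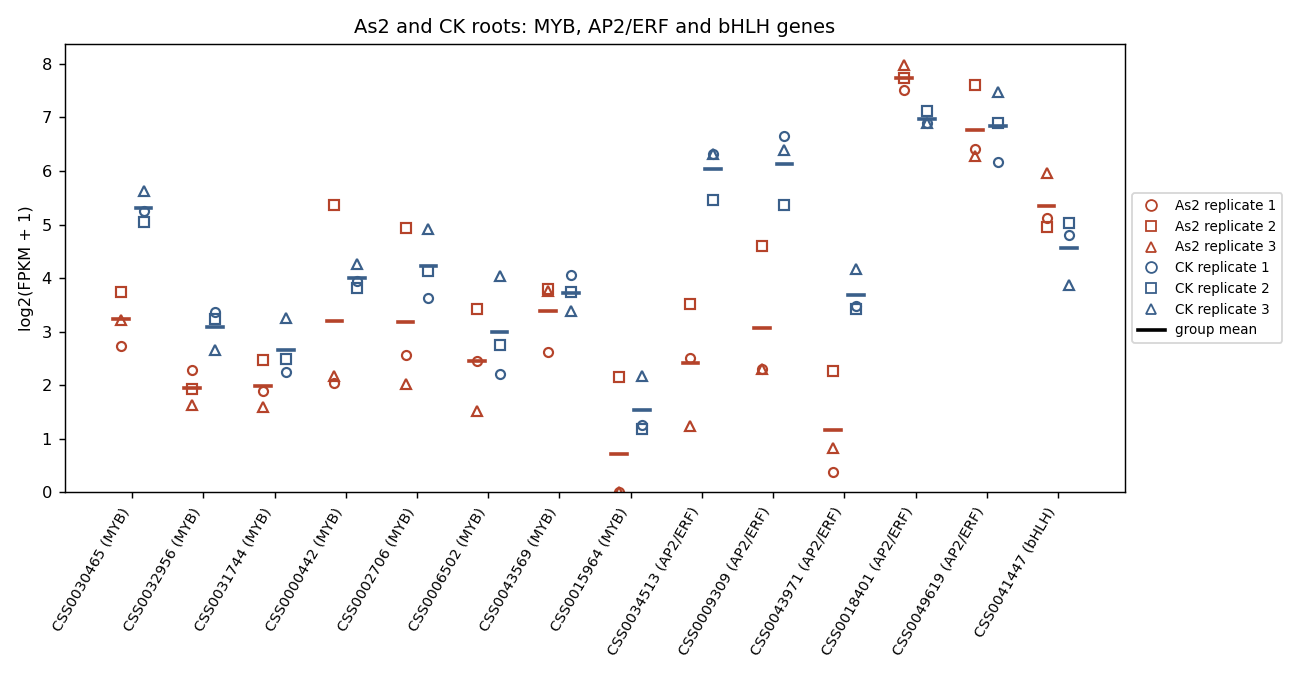
Log2(FPKM + 1) of the 8 MYB genes, of 5 AP2/ERF genes (all but CSS0000647) and of the bHLH gene in each library of As2 (red, left of each pair) and CK (blue, right). Each symbol is 1 library and each bar the mean of 3. As2-2 (red squares) is the highest As2 library in 7 of the 8 MYB genes, and in CSS0000442 it lies above every CK library with 40.3 FPKM. How often it is the highest As2 library over all tested genes was not counted.

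The place of As2-2 was then examined over all genes. Genes were chosen in 2 As2 libraries at a time (mean change over 2-fold from CK, both libraries on one side of all CK libraries), and the As2 library left out was read in them. CK took part in each choice, so these shares are descriptions and carry no test. Of the 1436 genes chosen as lower in As2-1 and As2-3, As2-2 was also below every CK library in 516 (35.9%), within the CK range in 525 (36.6%) and above every CK library in 395 (27.5%). Over all tested genes, As2-2 was below every CK library in 23.0% and above every CK library in 26.4%, so the share above CK in the 1436 genes was close to that of all genes. Its median log2 difference from the CK mean in the 1436 genes was −0.07, against −1.43 in the pair of libraries that chose them.

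As2-1 and As2-3 repeated a far larger share of their lower genes than As2-2 did, but the numbers of genes repeated were close. They were 502 for As2-1, 516 for As2-2 and 484 for As2-3. The shares differ through the number of genes chosen, 1436 by As2-1 and As2-3 against 658 and 634 by the pairs with As2-2. Which of the libraries departs from the others cannot be told from these shares. Of the 658 genes chosen as lower in As2-2 and As2-3, As2-1 was below every CK library in 76.3% and above every CK library in 4.41%. Of the 634 genes chosen as lower in As2-1 and As2-2, As2-3 was below every CK library in 76.3% and above every CK library in 3.00%. These shares were 28.5% (As2-1) and 28.8% (As2-3) for below every CK library over all tested genes. For the higher genes As2-2 did not stand out. As2-2 was above every CK library in 68.1% of the 457 genes chosen as higher in the other libraries, As2-1 in 68.2% of 305 and As2-3 in 54.4% of 485, beside 26.4%, 28.8% and 27.8% of all tested genes. The CK libraries were uneven as well. Of genes chosen as lower in As2 by the other CK libraries, CK-1 was above every As2 library in 57.75%, CK-2 in 82.95% and CK-3 in 65.58%. Of those chosen as higher, the shares below every As2 library were 52.24%, 75.55% and 51.9%. The shares over all tested genes were not counted for CK.

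**Figure D4:**
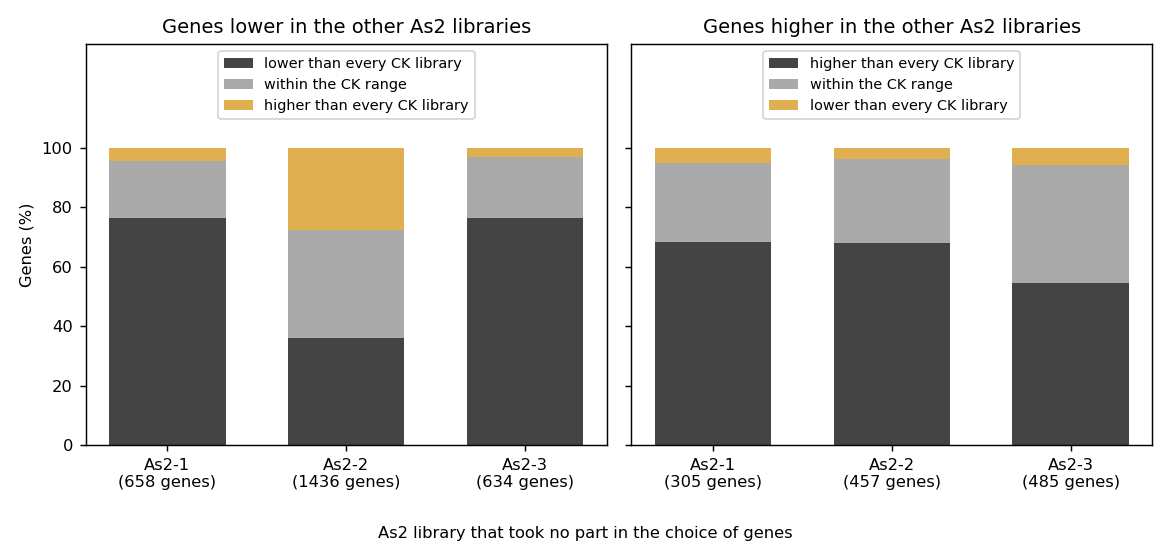
Share of genes (vertical axis, percent) in which the As2 library that took no part in the choice lay beyond all CK libraries on the same side, within the CK range, or beyond them on the other side, for genes chosen as lower (left) and higher (right) in the other As2 libraries. As2-2 repeated 35.9% of its 1436 lower genes, against 76.3% of 658 for As2-1 and 76.3% of 634 for As2-3. It repeated 68.1% of its 457 higher genes.

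The share of the lower genes that As2-2 repeated was smaller at higher levels. As2-2 was below every CK library in 42.8% of the 460 lower genes with a mean FPKM under 5, in 37.5% of the 453 at 5 to 20, in 29.7% of the 367 at 20 to 100 and in 25.6% of the 156 at 100 or more. It was above every CK library in 92 genes of the first class and in 28.0%, 32.2% and 37.2% of the next ones. In both upper classes it was thus more often above CK than below it. Over all tested genes As2-2 was also more often above every CK library (26.4%) than below every one (23.0%). These shares over all tested genes were not counted by level. In the 457 higher genes the share of As2-2 above every CK library was 62.9% under 5 FPKM and 83.3% at 100 FPKM or more (18 genes). The depth of As2-2 (12099167 fragments) was the greatest of the As2 libraries and within the range of CK, and the share of fragments in its 100 most abundant genes (14.4%) was between those of As2-1 (12.9%) and As2-3 (15.6%). What sets As2-2 apart was not tested.

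The other metal-treated libraries were read in the same 1436 lower genes. All share CK with the choice, so their values are set side by side only. Libraries of As1 were below every CK library in 56.7%, 70.1% and 64.1% of them, those of Cd2 in 82.5%, 82.6% and 61.8%, and those of Cd1 in 90.4% and 78.1%. Over all tested genes these shares were 29.1%, 33.3% and 32.4% in As1, 30.2%, 28.4% and 25.3% in Cd2, and 34.4% and 33.1% in Cd1. The share of As2-2, 35.9%, was lower than that of each of these libraries, and its median log2 difference from CK (−0.07) was nearest to 0, against −0.68 to −1.05 in As1, −0.72 to −1.34 in Cd2 and −1.34 to −1.85 in Cd1. In the 457 higher genes As2-2, with 68.1%, was the highest, and the Cd2 libraries (59.3%, 59.3% and 55.1%) and the Cd1 libraries (56.0% and 53.4%) came before the As1 libraries (39.2%, 38.7% and 37.0%). Over all tested genes, 27.8%, 26.1% and 22.6% were above every CK library in Cd2, 31.0% and 29.5% in Cd1, and 26.3%, 31.0% and 30.0% in As1.

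**Figure D5:**
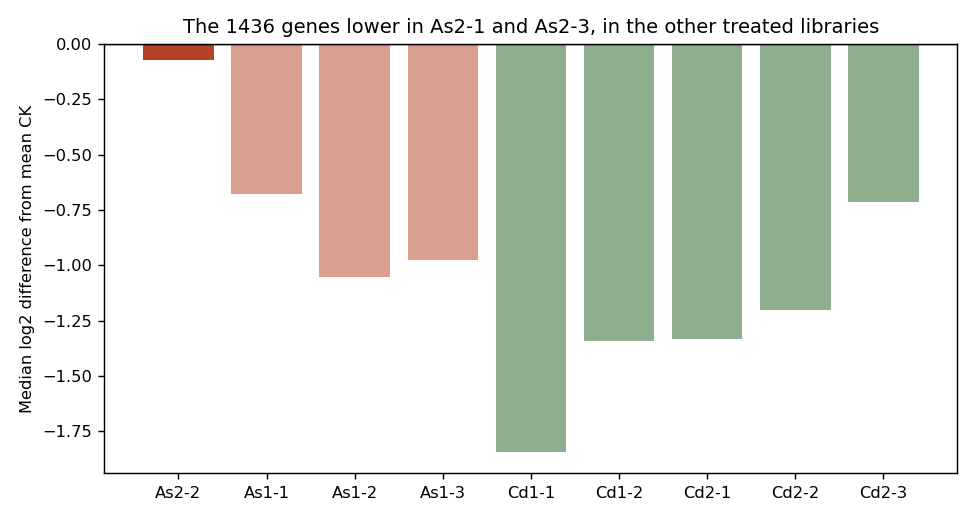
Median log2 difference from the CK mean (vertical axis, log2(FPKM + 1) scale) over the 1436 genes lower in As2-1 and As2-3, for each metal-treated library that took no part in the choice. Each bar is 1 library. As2-2 (−0.07) lies nearest to CK, the As1 libraries between −0.68 and −1.05, and the Cd libraries between −0.72 and −1.85.

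Without As2-2 the test called 122 DEGs in As2 vs. CK (0.427% of 28576 genes tested), 19 higher (0.0665%) and 103 lower (0.360%), and the 5 DEGs of the whole comparison were among them. Without As2-1 it called 0 and without As2-3 it called 5. As2-2 stood on the side of CK, so leaving it out tends to enlarge the differences by its choice. The added calls are therefore not support of their own. Of the 103 lower genes, As2-2 was below every CK library in 46, within the CK range in 32 and above every CK library in 25, beside 23.0% below and 26.4% above CK over all tested genes. Their median log2 fold change was −2.23 without As2-2 and −1.63 with it. Of the 19 higher genes, As2-2 was above every CK library in 17 (26.4% of all tested genes) and within the CK range in 2, with a median log2 fold change of 1.55 without As2-2 and 1.35 with it. The genes named in the study's text were 6 of the 122, namely CSS0000647 and CSS0001107 among the higher genes and CSS0030465, CSS0034513, CSS0009309 and CSS0043971 among the lower.

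As2 was also set against the As1 libraries. CK did not enter these fold changes, but the CK libraries took part in the filter on FPKM and in the estimate of the spread. Over all tested genes, 719 were DEGs in As2 vs. As1 (2.44%), 546 higher (1.85%) and 173 lower (0.587%) in As2. Genes expressed in As1 alone did not enter this test. With the filter taken over all 14 libraries (33109 genes), 516 genes were higher and 180 lower. All of the 7 genes of the GolS, RFS, NCED, HIPP and CSS0000647 group were among the higher ones. They were the only DEGs of the 22 study-named genes in this comparison. The study describes these 7 as lowest at the earlier sampling time and sharply raised at the later one in these same libraries. A higher value in As2 than in As1 was thus part of their choice, and their p-values are not independent evidence. HIPP gene CSS0006162 had 366, 236 and 185 FPKM in As2, against 2.60, 2.66 and 0.370 FPKM in As1, a log2 fold change of 6.59 (limma-trend, adjusted p = 1.8e-06). GolS gene CSS0035212 had 392, 197 and 154 FPKM in As2, against 9.96, 6.15 and 4.87 FPKM in As1 (log2 fold change 4.89, limma-trend, adjusted p = 1.8e-05). The CK libraries lay between As2 and As1 in both genes, with 62.8 to 106 FPKM for CSS0006162 and 65.3 to 110 FPKM for CSS0035212. The other 5 genes had log2 fold changes of 3.82 to 4.55 in As2 vs. As1. Of the DEGs of As2 vs. CK, CSS0037541 and CSS0041534 were also higher in As2 than in As1, with log2 fold changes of 2.16 and 2.17 (limma-trend, adjusted p = 9.5e-05 and 0.000142). CSS0014376 was lower, with a log2 fold change of −1.17 (limma-trend, adjusted p = 0.0356). These genes were chosen as DEGs with the same As2 libraries, so the values are not independent evidence.

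Against Cd for the same 15 d, 1 gene was a DEG in As2 vs. Cd2 (0.00339%), and it was lower in As2. None of the 22 study-named genes was called. The 7 genes had log2 fold changes between −0.02 and 0.40 in As2 vs. Cd2, with SEs of 0.25 to 0.38 and adjusted p-values of 0.709 or more (limma-trend). HIPP gene CSS0006162, for example, had 366, 236 and 185 FPKM in As2, against 230, 224 and 233 FPKM in Cd2, and NCED gene CSS0033791 had 52.0, 26.6 and 25.7 FPKM in As2, against 20.6, 26.5 and 30.0 FPKM in Cd2. The SEs leave room for differences of either sign, so these values do not show that the metals acted alike. The study also picked out the 7 genes for like patterns under Cd and As in these same libraries. Small differences between As2 and Cd2 were thus favoured by the choice. MYB gene CSS0030465, with 5.69, 12.3 and 8.32 FPKM in As2, against 7.10, 6.44 and 9.30 FPKM in Cd2, had a log2 fold change of 0.14 ± 0.29 (SE; limma-trend, adjusted p = 0.883). None of the 4 DEGs without a name was called in As2 vs. Cd2 (limma-trend, adjusted p between 0.138 and 0.545). In Cd2, CSS0037541 (142, 167 and 146 FPKM) and CSS0041534 (54.4, 57.6 and 55.5 FPKM) lay above every CK library. CSS0016059 (1.5, 1.1 and 0.6 FPKM) lay below every CK library, and CSS0014376 (46.3, 45.2 and 58.6 FPKM) overlapped CK. Their As2 vs. Cd2 log2 fold changes were 0.411, 0.497, −0.578 and −1.281 in this order. Whether they are specific to As was not tested.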

How the data were processed

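The authors extracted root RNA, sequenced poly-A libraries as paired reads on an Illumina instrument, trimmed the reads and used HISAT for mapping (the version of the tea genome is not given in the sources used here). They deposited FPKM values (fragments relative to gene length and library size) per gene and library. The labels Cd1 replicate 3 and Cd2 replicate 1 held the same values, whose header names Cd2, and these were used once, as Cd2 replicate 1, leaving 14 of 15 libraries. Of the 59128 genes, 50525 carry the CSS identifiers of the reference annotation, and 8603 have identifiers of another kind. No identifier matched the reference table (0), and the deposited gene models hold 0 of the CSS identifiers, so no positions or sequences are given.

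The filter asked for 1 FPKM or more in 3 or more of the 6 As2 and CK libraries. Tests were made on log2(FPKM + 1) with limma-trend (limma 3.58.1, R 4.3.3) over 5 groups fitted together, with Benjamini-Hochberg adjustment over 29496 genes, with DEGs defined by FDR < 0.05 and |log2 fold change| > 1. An exact test over 3 against 3 libraries cannot go below p = 0.1, so single genes were also described by whether the libraries overlap. Whole fragments were recovered from the steps of the FPKM values (46517 of 46517 genes above 0, 100.0%, tolerance 0.01), which gave the depth and, as an alternative, a limma-voom test with 3 DEGs. Genes were named if the study's text names them, and the 4 DEGs without a name were added after their values were seen. The members, lists and tests were chosen with earlier results of these data known. Alternatives varied the pseudocount, filter, scaling, model, thresholds and libraries, and 2 of 20 settings (library weights, and the joint removal of As2-2 and CK-3) were chosen after seeing the data. Python 3.11.15 was used for the other values.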

Additional observations from a re-analysis of the deposited data

Results flagged for a closer look

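The differences below stood out because As2 and As1 differed under the same comparison with CK by the test of the difference itself (limma-trend, As2 minus As1). The HIPP gene CSS0006162 differed by a log2 of 6.59 and the GolS genes CSS0035212, CSS0019367 and CSS0001107 by 4.89, 4.34 and 4.04. The AP2/ERF gene CSS0000647 differed by 4.55, the NCED gene CSS0033791 by 4.11 and the RFS gene CSS0050491 by 3.82. CSS0037541 and CSS0041534 differed by 2.16 and 2.17, and CSS0014376 by −1.17. The HIPP, GolS, AP2/ERF, NCED and RFS genes were named by the study for a rise from As1 to As2 in these same libraries. CSS0037541, CSS0041534 and CSS0014376 were chosen as DEGs of As2 vs. CK with the same As2 libraries. The differences are therefore a description and not independent evidence. The sampling times of As1 and As2 rest on the study's methods, and any difference in the days of harvest or handling cannot be told apart from the treatment time.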

How the results depend on the processing

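The 5 DEGs of As2 vs. CK became 2 with a pseudocount of 0.1, 3 without the filter, 12 after quantile normalization, 0 with the 2 groups alone, 2 without the duplicated library, 3 by limma-voom, 3 at a |log2 fold change| over 2, 60 at an FDR under 0.1 and 966 at an unadjusted p under 0.05. They became 16 with library weights and 29 without both As2-2 and CK-3, which were chosen after seeing the data. Leaving out 1 library gave 0 to 122. The deviations of As2-n and CK-n from their group means had correlations of r = 0.081, 0.044 and −0.338. With 3 libraries a group, these values cannot show whether libraries of the same number were handled together. A replicate block gave 0 DEGs (970 at an unadjusted p under 0.05). The 757 genes apart became 1191 with a pseudocount of 0.1 (39.0% higher in As2, against 33.7%), 814 after quantile normalization (40.3% higher), 81 at a |log2 fold change| over 2 (16.05% higher), 1821 without both libraries, and 743 to 1815 without 1 library.

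Of the genes lower in the other As2 libraries, As2-2 repeated 38.5% without the filter and 31.1% at a log2 fold change over 2, As2-1 65.8% (pseudocount 0.1) and 87.7% (log2 over 2), and As2-3 69.6% and 86.3%. Of the higher genes, As2-2 repeated 63.0% (pseudocount 0.1), 62.9% (no filter) and 86.4% (log2 over 2), As2-1 50% of 20 (log2 over 2), and As2-3 49.4% (no filter) and 60.3% (quantile). Of 410 alternative values for 26 genes, 361 kept direction and call, 35 lost and 10 gained a call, and 4 changed sign: CSS0043569 (0.047 without As2-1; −0.536 to 0.047 as 1 library was left out) and CSS0049619 (0.097 without As2-1, 0.165 without As2-3, 0.235 without CK-3; −0.503 to 0.235). The causes were not tested. Depth limits the low genes: CSS0015964 rests on 0 to 41 fragments a library.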
